A study of Homo sapiens with 16 samples.

Results

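C4-2B/Rx2dox cells were cultured with vehicle for 48 h (day 2) or 24 h (day 1), and the 8 vehicle arrays of the series, 4 for each day, are compared here. They make up 8 of its 16 arrays and were chosen by their treatment and time labels alone. The other 8 arrays come from cells given 250 ng/ml doxycycline (Dox) for the same times, 4 at 48 h and 4 at 24 h. C4-2B is a castration-resistant human prostate cancer line derived from LNCaP. All 4 groups, vehicle included, carry a lentiviral Dox-inducible Flag-tagged mouse Runx2 cDNA and the rtTA3 activator, driven by the Ubi-c promoter, after hygromycin selection. Vehicle was an equal volume of distilled water, and the medium was RPMI with serum approved for Tet systems. The vehicle cultures therefore hold the transgene without its inducer, and the day 2 cultures had been with vehicle for 24 h longer than the day 1 cultures at harvest. The time of plating and the cell density at harvest are not given.

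A culture that is left to grow uses up amino acids, glucose and oxygen and fills its dish. Cells read a shortage of amino acids through the kinase GCN2 and the transcription factor ATF4, which turns on amino acid transporters, synthesis enzymes and tRNA synthetases. A shortage of oxygen is read through the HIF factors, and a loss of growth factor signalling frees the FOXO factors to act in the nucleus. The ID proteins are dimerization partners without a DNA-binding domain that hold back basic helix-loop-helix factors, and bone morphogenetic proteins (BMPs) and serum are known to induce their genes.

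Each array is an Illumina BeadChip with 24526 probes. The scanner's median signal lay between 108 and 111 on the 4 vehicle arrays of day 2 and between 119 and 124 on those of day 1, with no overlap (two-sided exact permutation test p = 0.0286, the smallest that 4 against 4 arrays allow). The Dox arrays were likewise dimmer on day 2 (107 to 113) than on day 1 (125 to 139). The share of probes above background (detection p under 0.01, that is, brighter than nearly all of the 664 negative controls) was 40.2% to 41.9% on day 2 and 40.1% to 41.3% on day 1. The files do not name the chip of an array, so day and chip cannot be told apart in any comparison of the vehicle cultures. The part of the lower scanner signal in the results was not tested beyond the scaling alternatives given below. Human RUNX2 was above background on none of the 8 vehicle arrays, and whether its probe can read the mouse cDNA was not tested.

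**Figure D1:**
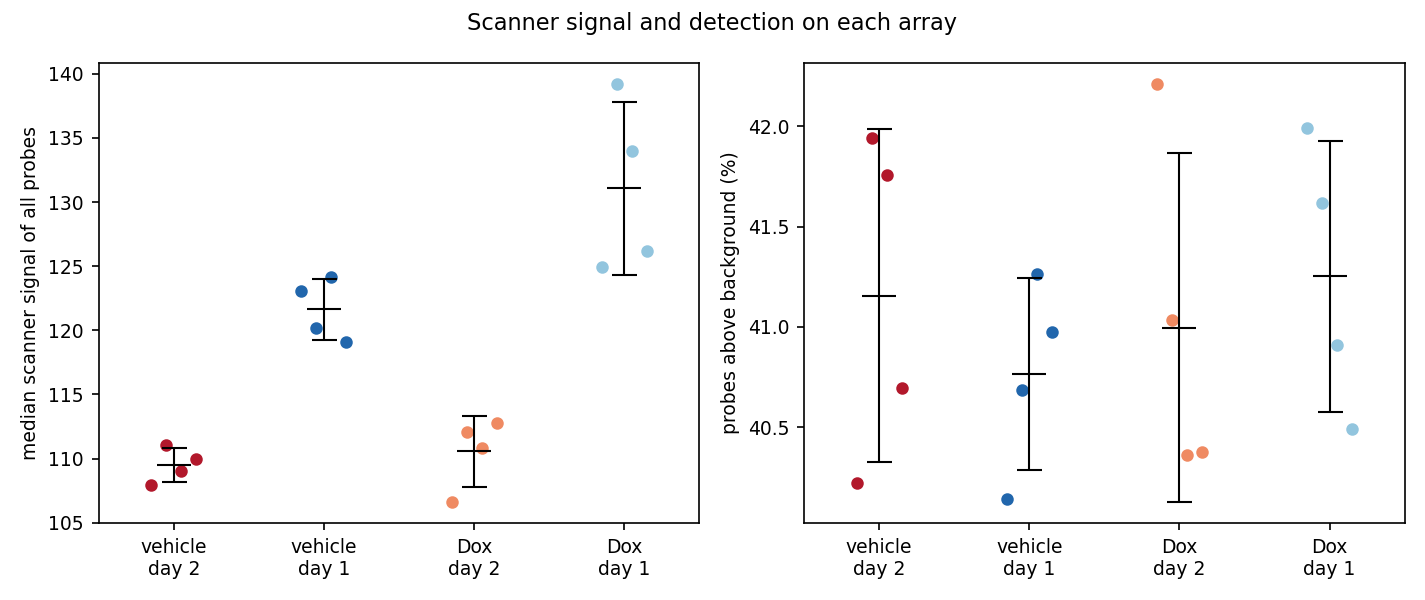
Left, the median scanner signal of all probes on each array. Right, the percentage of probes above background. Points are arrays, and bars are the mean and SD of 4 arrays in each group; the vertical axes do not start at 0. In vehicle and Dox cultures alike the day 2 arrays were dimmer than the day 1 arrays, while the percentage above background overlapped between vehicle day 2 and vehicle day 1.

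Signals were background-corrected and quantile normalized, and all values below are log2 signals or differences of log2 signals, day 2 minus day 1. A gene is represented by its brightest probe, and it was called where limma's moderated p, adjusted by Benjamini-Hochberg over all 24526 probes, was under 0.05. Of 16922 genes, 1070 (6.32%) were higher on day 2 and 1030 (6.09%) were lower, 12.4% in either direction. Among the 7788 genes above background on all 4 arrays of a day, 12.6% were higher and 12.3% lower. Most changes were small: the median absolute log2 difference of the called genes was 0.37, and 34 genes rose and 7 fell at least 2-fold. The 4 arrays of 1 day correlated with each other at r of 0.993 to 0.996 across probes, and arrays of different days at 0.991 to 0.993. When arrays were scaled to a common median in place of quantile normalization, the genes above background shifted by a median of -0.10, and the 1298 higher and 1293 lower probes (50.1% of the calls higher) became 689 and 2068 (25% higher). The balance between rises and falls therefore depended on the scaling, and gene groups are read below against the shift of all genes. Their counts stand beside 6.32% of all genes higher and 6.09% lower, or 12.6% and 12.3% of those above background.

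Genes of the amino acid stress response were among the largest rises. DDIT4 (chromosome 10, 72273924 to 72276036 of GRCh38), an inhibitor of the mTORC1 kinase that stress induces, stood at 12.83, 12.85, 12.85 and 12.92 on the 4 arrays of day 2 and at 10.80, 10.84, 10.76 and 10.59 on those of day 1. The 4 arrays of a day lay close together and the days did not overlap. The difference was 2.12 (standard error 0.065, 4.35-fold, adjusted p = 4.7e-12). ASNS, asparagine synthetase, averaged 12.10 ± 0.074 on day 2 and 10.98 ± 0.052 on day 1 (SD, n = 4 each), a 2.18-fold rise (adjusted p = 8.6e-09). Its second probe rose by 1.16. TRIB3, a pseudokinase that ATF4 and CHOP induce, had 11.18, 11.10, 10.93 and 11.11 on day 2 and 9.82, 9.91, 9.94 and 9.96 on day 1 (difference 1.17, adjusted p = 7.7e-09). In all of these every day 2 array lay above every day 1 array.

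Of 42 measured ATF4 target genes, 31 rose, 1 fell and 10 did not pass, against 6.32% and 6.09% of all genes, and the median difference of the list was 0.43 against 0.00187 for all genes. Among enzymes of amino acid metabolism, CTH (cystathionine gamma-lyase) rose by 1.35 and PCK2 (the mitochondrial phosphoenolpyruvate carboxykinase) by 1.23. A second CTH probe rose by 0.67, and other PCK2 probes by 1.20 and 0.78. Among transporters, SLC6A9, which carries glycine, rose by 1.24, and SLC7A11, which exchanges cystine for glutamate, stood at 6.79 to 7.05 on day 2 and 5.56 to 6.01 on day 1 and rose by 1.19. NUPR1, a small stress-induced nuclear protein, rose by 1.47 and NIBAN1 by 1.30. Of the transcription factors, CEBPG rose by 0.90, DDIT3 (CHOP) and ATF3 by 0.75 each, and ATF4, which is controlled mainly at translation, by 0.37 with 1 probe and 0.72 with another. CHAC1, which degrades glutathione, rose by 0.88. The single fall was ATF5 (-0.49, standard error 0.103, adjusted p = 0.0041), an ATF4 relative.

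Of 19 cytosolic aminoacyl-tRNA synthetases, the enzymes that load tRNAs with their amino acids, 12 rose and FARSA fell (-0.38). GARS1 led with 11.68, 11.59, 11.56 and 11.70 on day 2 and 10.91, 10.89, 10.87 and 10.74 on day 1 (difference 0.78, adjusted p = 7.4e-07), and MARS1 (0.61), CARS1 (0.56) and AARS1 (0.52) were among the other rises. The median of the list was 0.26. With median scaling 6 members were higher and 2 lower. Genes of protein folding in the endoplasmic reticulum did not share this direction: of 22 measured, 2 were higher, XBP1 at 0.41 among them, and 2 lower, with a median of 0.05 (-0.08 with median scaling).

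**Figure D2:**
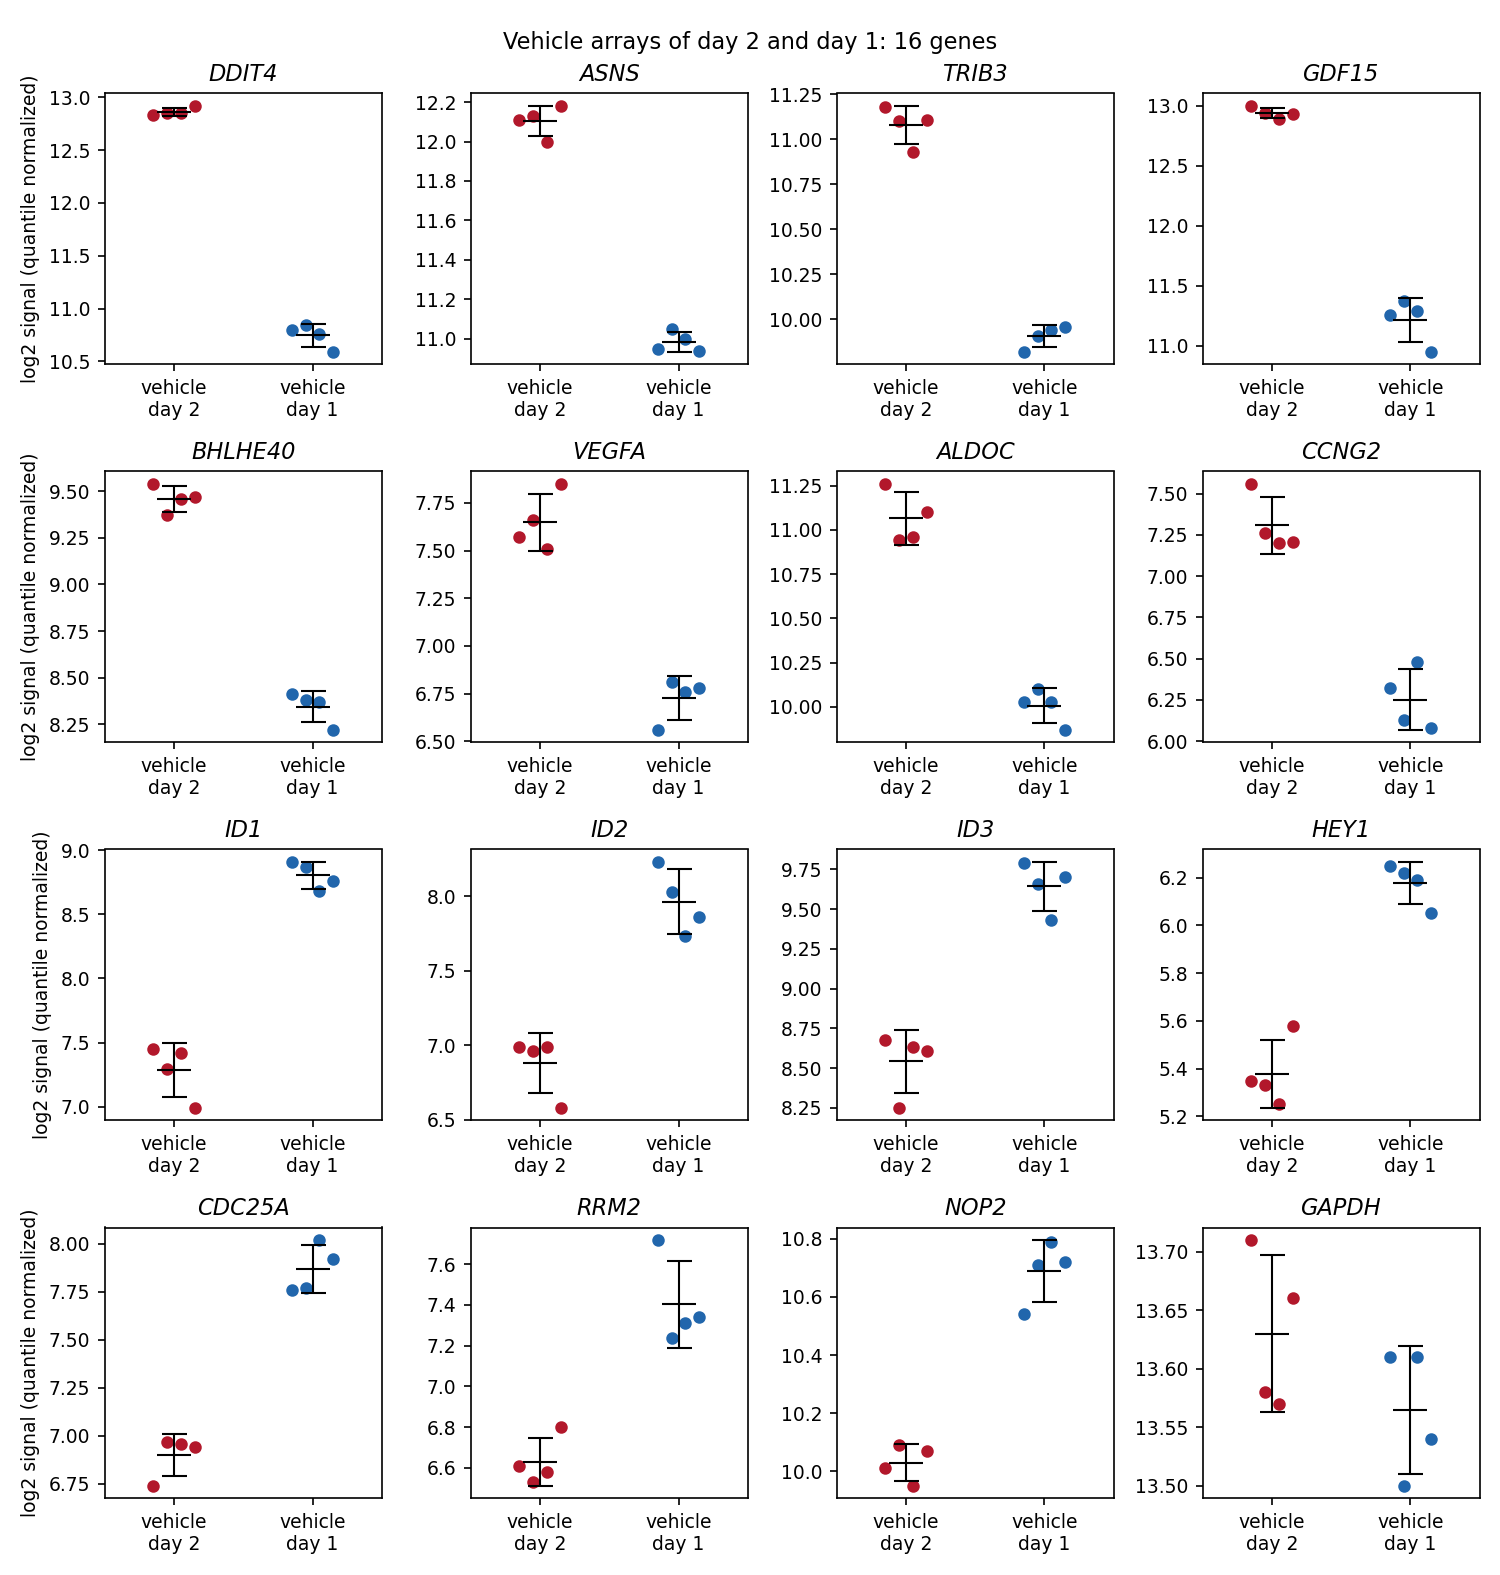
Log2 signal of 16 genes on the vehicle arrays of day 2 (left, 4 points) and day 1 (right, 4 points), with the mean and SD of each day. Each panel has its own vertical axis, which does not start at 0. All 4 arrays of day 2 lay above those of day 1 for the 8 genes of the upper panels and below them for ID1, ID2, ID3, HEY1, CDC25A, RRM2 and NOP2, while GAPDH overlapped. The largest changes were named only among genes without overlap.

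Promoters of genes on these lists are shown because ATF4 and its C/EBP partners bind a known composite element. In the RefSeq promoter windows of GRCh38 (250 bases before and 50 after the start of the RefSeq transcript used for a gene), the letters TGATGNAA or their complement TTNCATCA were found in 6 of the 34 ATF4 target genes with a window (17.6%) and in 6 of 16 tRNA synthetases (37.5%), against 3.67% of all 27305 windows. Of the called genes with a match upstream of the start, the 4 with the largest change are printed as stretches of 80 bases in the gene's direction, with the match in capitals. The 4 genes are ASNS (chr7:97872437-97872516, minus strand), CHAC1 (chr15:40953222-40953301, plus strand), ATF3 (chr1:212565176-212565255, plus strand) and AARS1 (chr16:70289654-70289733, minus strand). Of the called genes with a window, 4 of 28 ATF4 targets and 6 of 11 tRNA synthetases held a match. The ATF4 list was drawn up from known targets, and the lists below from known pathway members. A share above that of all windows is therefore no result about the day change. A match describes the letters, not a bound site.
ASNS: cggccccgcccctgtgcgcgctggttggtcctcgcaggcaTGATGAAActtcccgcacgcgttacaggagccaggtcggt
CHAC1: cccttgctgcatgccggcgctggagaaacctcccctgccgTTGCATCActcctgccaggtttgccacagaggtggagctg
ATF3: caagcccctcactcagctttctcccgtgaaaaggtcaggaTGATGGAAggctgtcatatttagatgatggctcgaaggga
AARS1: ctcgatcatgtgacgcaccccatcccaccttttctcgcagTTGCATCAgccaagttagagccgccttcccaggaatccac

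Genes that low oxygen induces rose as well. BHLHE40, a helix-loop-helix repressor, stood at 9.54, 9.37, 9.46 and 9.47 on day 2 and at 8.41, 8.38, 8.37 and 8.22 on day 1 (difference 1.12, standard error 0.064, adjusted p = 1e-08). VEGFA, the vascular growth factor, had 7.57, 7.66, 7.51 and 7.85 on day 2 and 6.56, 6.81, 6.76 and 6.78 on day 1, a 1.89-fold rise (adjusted p = 2.6e-06). With these brightest probes neither gene's days overlapped. Another VEGFA probe rose by 0.60. Of 29 measured hypoxia genes, 18 rose, 1 fell (JMJD6, -0.40) and 10 did not pass, with a median difference of 0.49. Rises of about 2-fold were seen for PFKFB4 (1.11), a kinase that drives glycolysis, for ANKRD37 (1.06), for NDRG1 (1.03) and for LOX (1.02), which cross-links collagen and was above background on all 4 arrays of day 2 but on only 1 of day 1. BNIP3, a mitochondrial protein that serves mitophagy, rose less (0.41).

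Of 18 glycolytic genes, 8 rose and none fell, with a median of 0.16. Brain-type isoforms led: ALDOC rose by 1.06 and ENO2 by 1.04, whereas ALDOA rose by 0.42 and HK2, which phosphorylates glucose, by 0.43. Another ALDOA probe above background differed by 0.31 and did not pass (limma adjusted p = 0.21). PGK1 rose by 0.30 (adjusted p = 0.032), a call lost with median scaling (0.16). The brightest GAPDH probe differed by 0.07 (adjusted p = 0.61), with 13.57 to 13.71 on day 2 and 13.50 to 13.61 on day 1, though a second GAPDH probe rose by 0.30. With median scaling 5 glycolytic genes were higher.

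The core of the HIF element is printed for the 3 called genes of these groups with the largest change and a match upstream of the start. ACGTG or its complement CACGT was found in the windows of 11 of 23 hypoxia genes (47.8%) and 8 of 18 glycolytic genes (44.4%), against 21.6% of all windows. The letters are also part of the E-box CACGTG, which other factors bind. Matches are in capitals in BHLHE40 (chr3:4979248-4979327, plus strand), ANKRD37 (chr4:185396658-185396737, plus strand) and ALDOC (chr17:28576896-28576975, minus strand).
BHLHE40: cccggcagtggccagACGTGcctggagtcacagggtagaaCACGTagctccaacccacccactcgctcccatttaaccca
ANKRD37: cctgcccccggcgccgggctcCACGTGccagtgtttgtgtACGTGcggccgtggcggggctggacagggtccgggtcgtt
ALDOC: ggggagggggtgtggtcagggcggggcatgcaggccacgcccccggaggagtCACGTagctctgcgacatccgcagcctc

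Among the called genes ID1 fell most (chromosome 20, 31605289 to 31606510), and ID2 and ID3 fell with it. ID1 had 7.45, 7.29, 7.42 and 6.99 on day 2 and 8.91, 8.87, 8.68 and 8.76 on day 1 (difference -1.52, standard error 0.106, 2.86-fold lower, adjusted p = 1.1e-07). ID2 had 6.99, 6.96, 6.99 and 6.58 on day 2 and 8.23, 8.03, 7.73 and 7.86 on day 1 (difference -1.08, adjusted p = 2.7e-06). ID3 had 8.68, 8.25, 8.63 and 8.61 on day 2 and 9.79, 9.66, 9.43 and 9.70 on day 1 (difference -1.10, adjusted p = 8.1e-07). For each of these the highest day 2 array lay well below the lowest day 1 array, and the rule for the largest falls takes only genes without overlap. ID4 was not above background on any vehicle array.

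Most other members of the BMP pathway did not pass. Of 14 measured BMP target genes 5 fell and none rose: beside the ID genes, HEY1, a Hes-type repressor, fell by 0.80 and was above background on 1 of the 4 arrays of day 2, and SMAD6, an inhibitory SMAD, had 7.76 to 7.97 on day 2 and 8.21 to 8.44 on day 1 (difference -0.45, adjusted p = 0.0011). BAMBI, a decoy receptor that BMPs also induce, had 10.43 to 10.82 on day 2 and 10.51 to 10.59 on day 1 and did not pass (0.10, adjusted p = 0.51). Only 8 of the 14 were above background on all 4 arrays of a day, and the median of the list was -0.11. Of 25 ligands, receptors and SMADs of the family, GDF15 was called and 24 were not. BMPR2, the type II receptor, differed by 0.12 (adjusted p = 0.7).

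GDF15, a distant member of the family that stress induces, averaged 12.94 ± 0.043 on day 2 and 11.22 ± 0.18 on day 1 (SD, n = 4 each). No arrays overlapped, which the rule for the largest rises requires. Its rise of 1.72 (standard error 0.108, adjusted p = 3.1e-08) was the second largest after DDIT4. TSC22D3 (GILZ), known as a target of glucocorticoids and FOXO, rose by 1.48 with its brightest probe and by 1.62 with another. BEST1, a chloride channel, was above background on all 4 arrays of day 2 and on none of day 1 and rose at least 2.52-fold, and KISS1R, the kisspeptin receptor, likewise rose at least 1.86-fold. S100P, a calcium-binding protein, rose by 1.17, DHRS3, a retinaldehyde reductase, by 1.18, and PRPH, the neuronal filament protein peripherin, by 1.13. Among the falls outside the BMP list, BEGAIN, a scaffold protein, fell at least 1.78-fold to below background on all 4 arrays of day 2, FAM13B fell by 1.06, DUSP2, a MAP kinase phosphatase, by 1.01 and THBS1, the matrix protein thrombospondin 1, by 0.80.

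A part of each list of cell cycle and ribosome biogenesis genes passed, and most of the members that passed were lower on day 2. In RNA of whole cultures, fewer cells in a phase and less RNA per cell cannot be told apart. CDC25A, the phosphatase that activates CDK2, had 6.74, 6.97, 6.96 and 6.94 on day 2 and 7.76, 7.77, 8.02 and 7.92 on day 1 (difference -0.97, adjusted p = 1.4e-06), and CCNE1, cyclin E1, fell by 0.74. The 3 inhibitors of the Cip/Kip family all rose: CDKN1C (p57) at least 1.98-fold, since none of the 4 arrays of day 1 was above background, CDKN1A (p21) by 0.53 and CDKN1B (p27) by 0.47. MYC (-0.06) and CCND1 (-0.05) did not pass, with overlapping arrays. Of 25 genes of the G1/S transition, 3 rose and 8 fell.

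Of 47 DNA replication genes 20 fell and none rose, with a median of -0.24. RRM2, a subunit of ribonucleotide reductase, had 6.61, 6.53, 6.58 and 6.80 on day 2 and 7.72, 7.24, 7.31 and 7.34 on day 1 (difference -0.77, adjusted p = 0.00012). The licensing factors CDC6 and CDT1 fell by 0.61 and 0.57, and CDC6, dim and with overlapping arrays, lost its call in the fit of the vehicle arrays alone and in the authors' normalized values. Of 46 mitosis genes 16 fell and none rose (median -0.20), led by BIRC5 (survivin) at -0.52, and 30 did not pass, among them MKI67 (4.90 to 5.71 on day 2 and 5.64 to 6.20 on day 1, adjusted p = 0.083). This count moved with the processing, with 10 falls in the authors' normalized values and 25 with median scaling. Of 22 histone genes 9 fell and none rose, including H2AC6 (-1.01), H4C8 (-0.62) and H2AX (-0.60), though near-identical histone genes can share a probe's signal.

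In ribosome biogenesis 15 of 36 genes fell and none rose (median -0.22), NOP16 (-0.56) among them. NOP2, an rRNA methyltransferase, had 9.95 to 10.09 on day 2 and 10.54 to 10.79 on day 1 (difference -0.66). Another NOP2 probe differed by -0.34. The ribosomal proteins themselves stayed close to the level of all genes, with 2 of 47 higher, none lower and a median of 0.04 (-0.04 with median scaling). Of 21 heat shock proteins 7 fell and none rose, among them DNAJA1 (-0.51), HSPH1 (-0.49) and HSPA8 (-0.37). Without day 2 replicate 3 the number was 4. Of 12 control genes 1 was higher and 3 lower with a median of 0.000792 (-0.12 with median scaling), and ACTB differed by -0.06 (adjusted p = 0.71).

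The E2F element is printed for the 2 called replication genes with the largest change and a match upstream of the start. TTTNGCGC or its complement GCGCNAAA, which can overlap each other, was found in 14 of 41 replication genes with a window (34.1%), against 1.83% of all windows. Capitals mark the matches in CDT1 (chr16:88803539-88803618, plus strand) and MCM6 (chr2:135876490-135876569, minus strand), a helicase subunit that fell by 0.38.
CDT1: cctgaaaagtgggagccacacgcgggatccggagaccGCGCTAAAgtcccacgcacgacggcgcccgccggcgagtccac
MCM6: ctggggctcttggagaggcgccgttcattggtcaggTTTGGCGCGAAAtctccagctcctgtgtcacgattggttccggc

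Genes linked to FOXO activity and growth factor withdrawal moved the other way. Of 30 measured, 15 rose and none fell (median 0.27). CCNG2, an atypical cyclin of resting cells, had 7.56, 7.26, 7.20 and 7.21 on day 2 and 6.32, 6.13, 6.48 and 6.08 on day 1 (difference 1.05, adjusted p = 4.4e-06). YPEL5 rose by 0.92, GABARAPL1, which serves autophagosomes, and HBP1, a repressor of cell cycle genes, by 0.72 each, TXNIP, which limits glucose uptake, by 0.63 and FOXO3 itself by 0.39. In the promoter windows the FOXO letters GTAAACA or TGTTTAC were found for 5 of 28 of these genes (17.9%), against 3.41% of all windows.

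**Figure D3:**
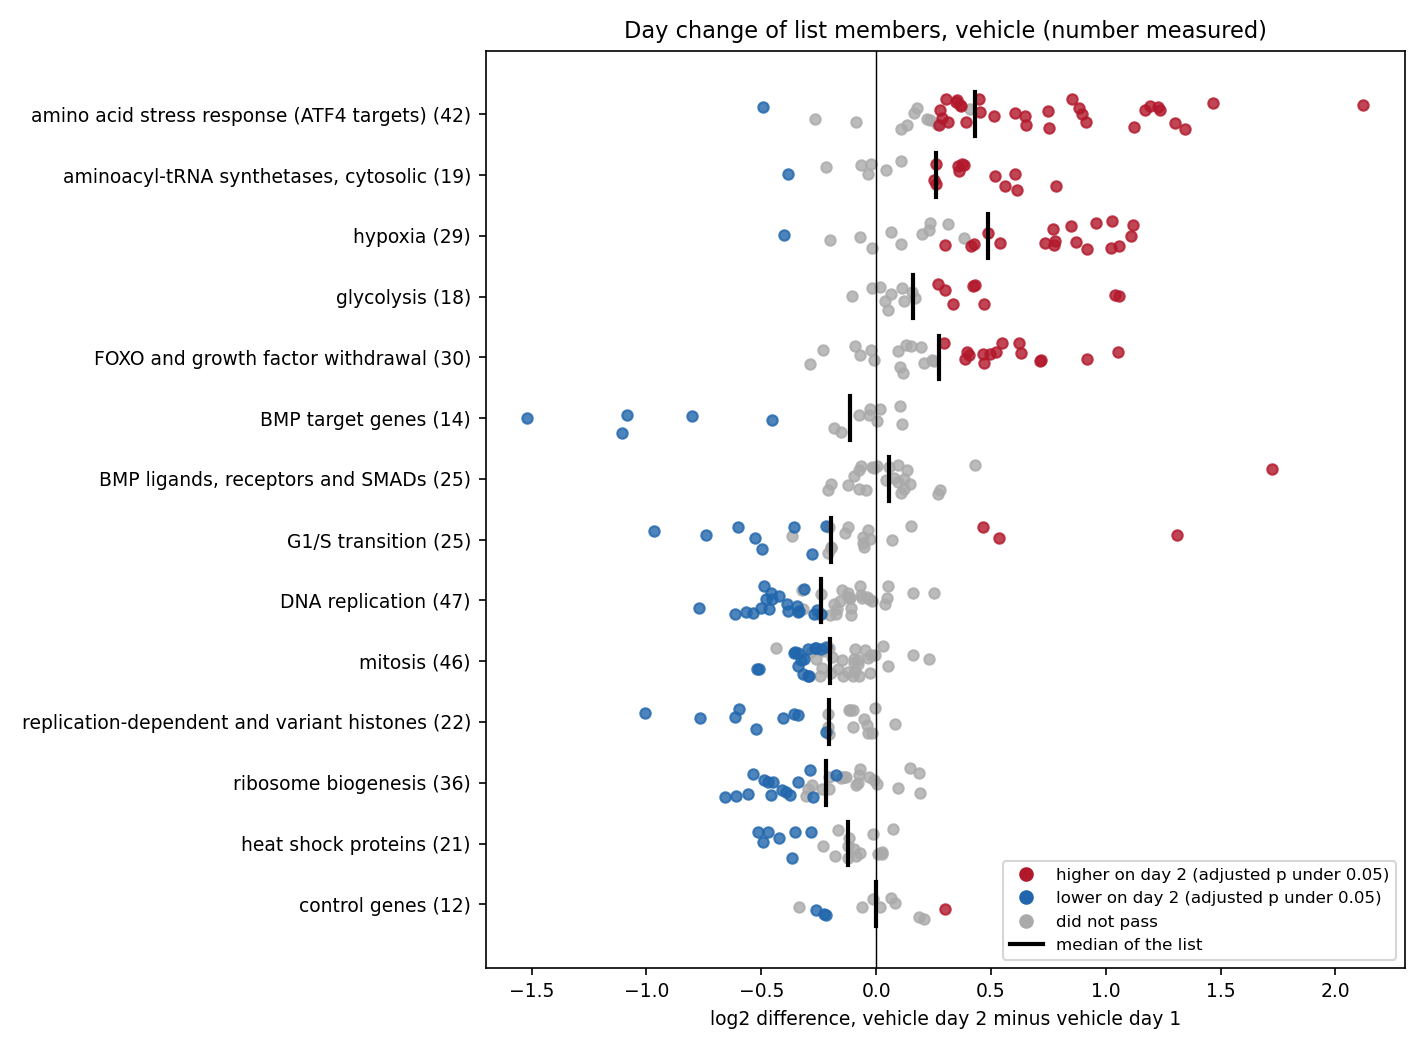
Log2 difference of each measured member of 14 gene lists between vehicle day 2 and vehicle day 1 (horizontal axis). Red and blue points passed the test in either direction, grey points did not, and bars mark the median of a list. Red points prevailed in the lists of ATF4 targets (31 of 42), hypoxia (18 of 29) and FOXO (15 of 30), and the points that passed were all blue in DNA replication (20 of 47), mitosis (16 of 46) and ribosome biogenesis (15 of 36).

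Of 16 genes of fatty acid synthesis 6 rose and none fell, with a median of 0.21. With median scaling, and likewise in the authors' values, 4 were higher, and the median was 0.08 with median scaling. The rises included SCD, the stearoyl-CoA desaturase, at 12.12 to 12.22 on day 2 and 11.51 to 11.81 on day 1 (difference 0.51), and FASN at 0.49, a call lost when any one of day 2 replicates 1, 2 and 4 or day 1 replicates 2 and 4 was left out, with values between 0.42 and 0.49. SREBF1 (0.47) and INSIG1 (0.72), which control the pathway, rose too, while cholesterol genes as a list did not lean (4 higher and 1 lower of 22, median 0.01, or -0.03 with median scaling).

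Markers of the prostate cancer line were present on both days. All 11 measured markers of C4-2B and LNCaP cells were above background, 5 rose and none fell. TMPRSS2, the androgen-regulated serine protease, had 11.04, 11.17, 11.01 and 11.12 on day 2 and 10.20, 10.19, 10.40 and 10.25 on day 1 (difference 0.83, adjusted p = 5.1e-07), and KLK2 rose by 0.54, FOLH1 (PSMA) by 0.35, KLK3 (PSA) by 0.31 and SLC45A3 by 0.29. The last 3 calls were lost with median scaling. A second FOLH1 probe above background differed by 0.19 and did not pass (limma adjusted p = 0.41). Of 8 basal or PC3-type markers only VIM was above background on all 4 arrays of a day, and it rose by 0.88 from a low signal (6.31 to 6.68 on day 2 and 5.51 to 5.78 on day 1). None of 9 stromal markers was called, though PDGFRA and PDGFRB were above background on all 4 arrays of day 2 and COL1A1 on 3. Of 6 hematopoietic markers none was called, with CD68 above background on all 8 arrays and HBB on 3 of day 2 and 4 of day 1. Of 5 endothelial markers VWF was (0.47, adjusted p = 0.023, a call lost without day 2 replicate 2 or 4 or day 1 replicate 1 or 4, with values between 0.41 and 0.46). No array was above background for 7 of the 8 basal or PC3-type, 6 of the 9 stromal, 4 of the 6 hematopoietic and 4 of the 5 endothelial markers, KRT5, COL1A2, PTPRC and PECAM1 among them.

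The same interval was then compared with the Dox cultures, whose arrays are separate from the vehicle arrays. Of the 2100 genes called with vehicle, 1042 were also called with Dox in the same direction, 153 in the opposite direction and 905 were not called with Dox, where 22.8% of all genes were called in either direction. The difference between the vehicle and the Dox change (interaction term of the limma fit) passed for 759 of the 2100 and did not pass for 1341. It was more positive with vehicle for 412 of them, against 6.77% of all genes, and more negative for 347, against 6.28%. The 2100 genes were chosen by the vehicle change, which is also a part of the interaction. Shares above those of all genes therefore follow in part from that choice. Across the 2100 genes the changes correlated at r = 0.49, given as a description because genes are not independent. The arrays of both cultures were dimmer on day 2, and the part of this in the shared direction was not tested.

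The ATF4 targets differed between the cultures. With Dox 8 of the 42 were higher and 12 lower on day 2, and the interaction passed for 28, in all of them with the more positive change in vehicle. The mean signal of the list was 8.69 to 8.75 on vehicle day 2 and 8.08 to 8.16 on vehicle day 1, and the Dox arrays stayed near the vehicle day 1 level with 8.02 to 8.11 on day 2 and 8.09 to 8.18 on day 1. ASNS followed this pattern with 10.39 to 10.67 on Dox day 2 and 10.51 to 10.61 on Dox day 1. DDIT4 did not, since with Dox it was already high on both days, with 12.57 ± 0.078 on day 2 and 12.49 ± 0.083 on day 1 (SD, n = 4 each). The tRNA synthetases behaved like the list: of 19, none rose and 6 fell with Dox, and the interaction passed for 12, against the same shares.

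**Figure D4:**
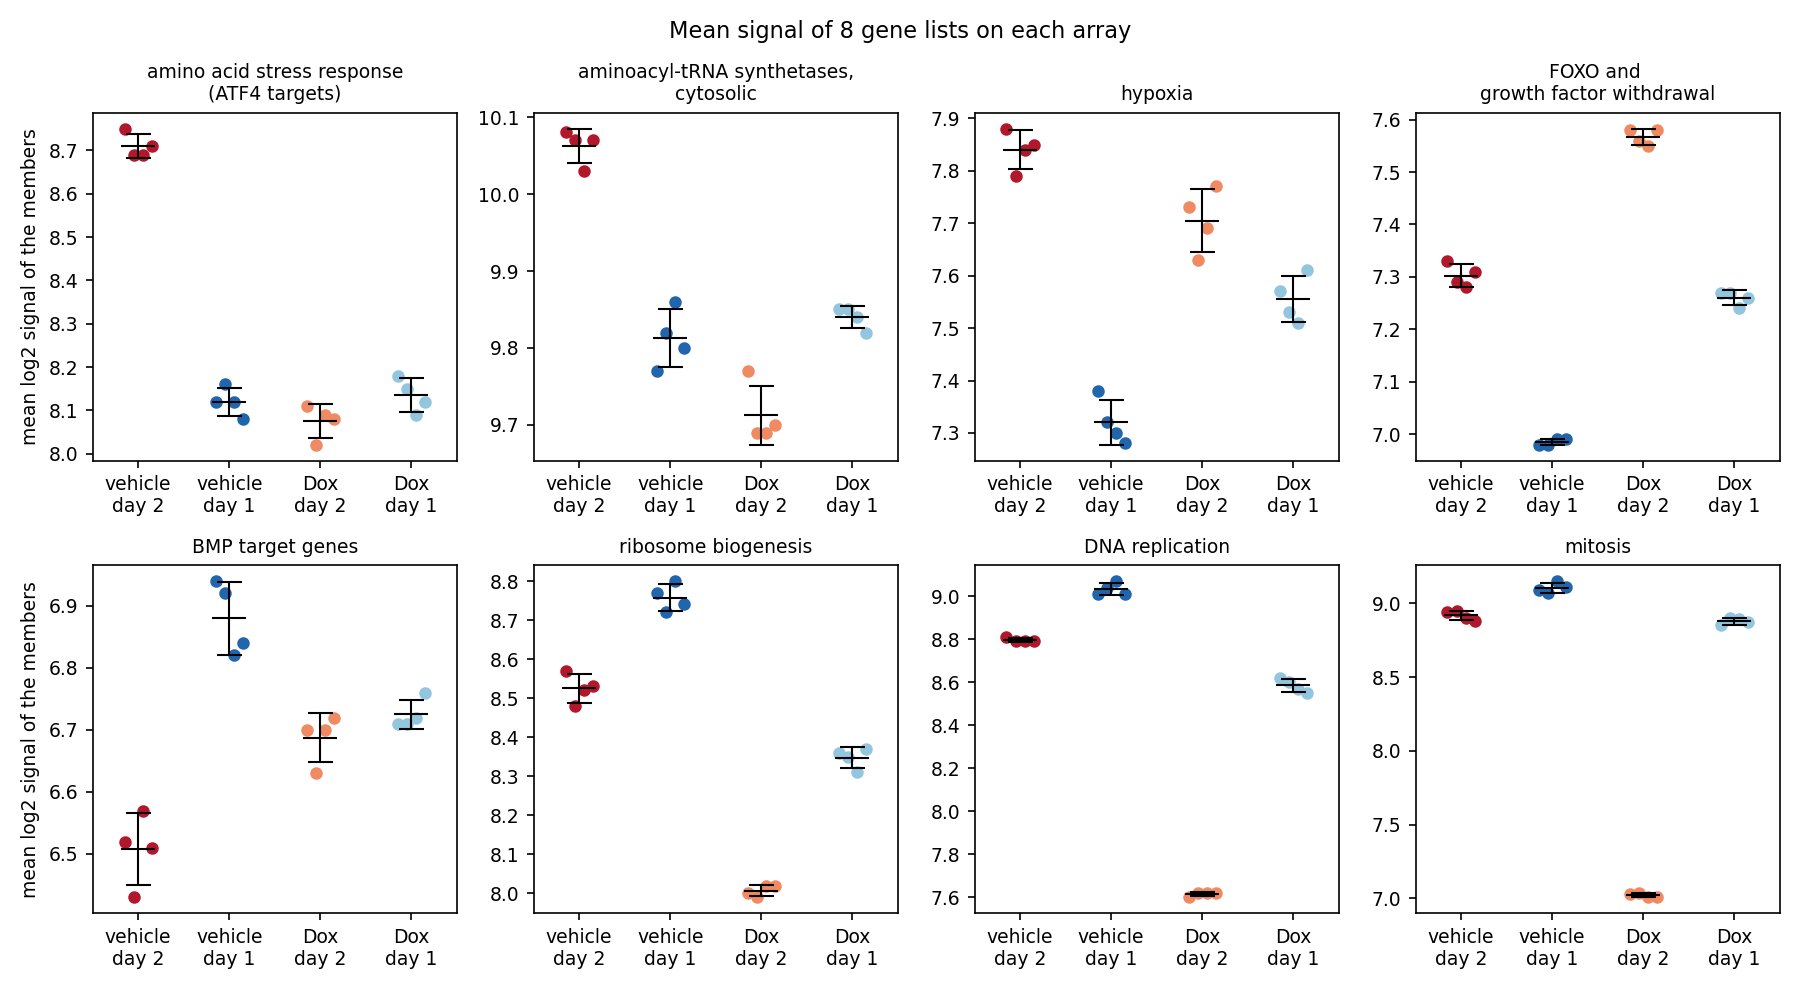
Mean log2 signal of the measured members of 8 gene lists on each array (points), with the mean and SD of the 4 arrays of a group, for vehicle day 2, vehicle day 1, Dox day 2 and Dox day 1. Vertical axes differ between panels and do not start at 0. The ATF4 target list stood at 8.69 to 8.75 on vehicle day 2 and at 8.02 to 8.18 on the other 12 arrays, whereas the mitosis list was lowest on Dox day 2 (7.01 to 7.04).

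Hypoxia genes rose in both cultures, 18 of the 29 with vehicle and 11 with Dox, where 11.8% of all genes rose. For 13 of the 29 the vehicle change was the more positive, against 6.77% of all genes. VEGFA was brighter on all 8 Dox arrays (8.87 to 9.36) than on any vehicle array. Of the FOXO-linked genes 15 rose with vehicle, and 15 rose and 1 fell with Dox, and the interaction passed for 6 of 30. ID1 had 6.86 to 7.27 on Dox day 2 and 7.10 to 7.39 on Dox day 1, so both Dox days lay near the vehicle day 2 level, and its Dox change of -0.09 did not pass (interaction -1.43, adjusted p = 3.3e-06). ID2 instead had 8.10 to 8.15 on Dox day 2 and 7.85 to 7.98 on Dox day 1, within the range of vehicle day 1 (7.73 to 8.23).

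More replication and mitosis genes fell with Dox than with vehicle. For mitosis genes 16 of 46 fell with vehicle and 45 with Dox, the interaction passed for 42, and the medians were -0.20 with vehicle and -1.99 with Dox. For DNA replication 20 of 47 fell with vehicle and 40 with Dox, and the interaction passed for 35. In ribosome biogenesis 15 of 36 fell with vehicle and 22 with Dox, and it passed for 9. Histone genes went apart: 9 of 22 fell and none rose with vehicle, while 8 rose and 4 fell with Dox. H4C8 changed by -0.62 with vehicle and 1.43 with Dox, and H2AC6 by -1.01 with vehicle and 0.87 with Dox. CBFB, the partner of the Runx proteins, differed by 0.01 between the vehicle days and fell by 0.34 with Dox.

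**Figure D5:**
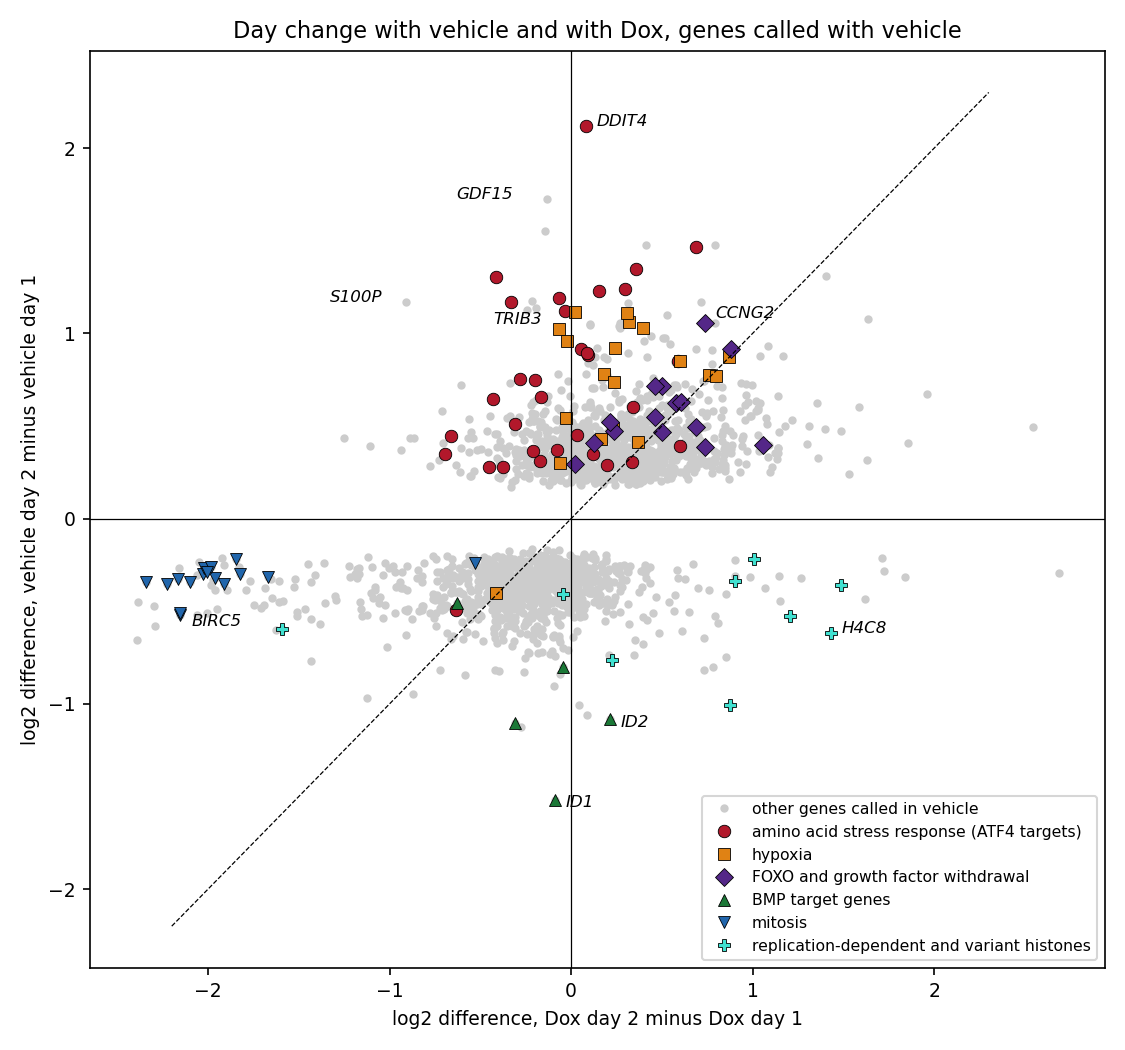
Day change with vehicle (vertical axis, log2 vehicle day 2 minus vehicle day 1) against day change with Dox (horizontal axis, log2 Dox day 2 minus Dox day 1) for the 2100 genes called with vehicle; the empty band around 0 on the vertical axis comes from that choice. The dashed line marks equal changes, and gene lists are coloured. DDIT4 (2.12 and 0.08) and ID1 (-1.52 and -0.09) lie near the vertical line at 0, FOXO-linked genes near the dashed line, and mitosis genes far to the left.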

How the data were processed

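The authors hybridized RNA of each culture (biological quadruplicates) to Illumina HumanRef-8 BeadChips and deposited, per probe, the scanner's signal intensity and detection p-value, not normalized. A second deposited table holds the authors' log2 values after background correction and quantile normalization; every array's median is 4.673 there, and it served as an alternative. With 1 colour no ratio direction arises. Here the intensities were corrected with limma 3.58.1 (R 4.3.3) by normexp, its background estimated from the detection p-values (offset 16), then quantile normalized and log2 transformed. A linear model of the 4 group means over all 16 arrays (12 residual degrees of freedom) with moderated variances gave the contrasts vehicle day 2 minus vehicle day 1, the same for Dox, and their difference; two-sided p-values were adjusted by Benjamini-Hochberg over 24526 probes. The procedure was tested on simulated data.

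Platform annotation gave 1 symbol to 21834 probes, several to 0 and none to 2692, leaving 16922 genes, each read by its brightest probe. Of 65 other probes of the genes the rule below names, the call differed for 43, of which 34 were not above background on any vehicle array. "At least" folds set the lowest signal above background on an array in place of a dimmer one. Genes were named by rule: the 20 largest rises and falls called, above background on all 4 arrays of a day and without overlap, up to 5 per list, pathway genes picked by hand, and the 6 largest differences from Dox each way, from which the text takes a part. ATF3, ATF4, ATF5, CEBPG, CDKN1B, FARSA, FOXO3, JMJD6, MCM6, HBA2 and HBB lie outside the rule and were chosen after their values were seen. The markers PDGFRA, PDGFRB, COL1A1, CD68, KRT5, COL1A2, PTPRC and PECAM1 lie outside it too and are given for detection alone. Members, lists and rule were chosen with earlier results of these data known. Of the genes the rule lists by name, 3 are not analysed here. Replicate numbers were not used to pair the samples, because a pairing was not shown. The number of arrays limits the precision.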

Additional observations from a re-analysis of the deposited data

Results flagged for a closer look

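In 15 of 226 groups of 4 arrays tested (6.64%, where chance gives about 1 in 20), 1 array of a gene stood apart from the other 3 by a gap over Dixon's critical share of the group's range, and 6 of the 15 were replicate 1. On day 2 these were NIBAN1 in replicate 4 (8.24), SLC6A9 in replicate 3 (7.67), BNIP3 in replicate 1 (12.43), CCNG2 in replicate 1 (7.56) and CYCS in replicate 4 (7.39) on the high side, and ID2 in replicate 4 (6.58), ID3 in replicate 2 (8.25), CDC25A in replicate 1 (6.74) and CEBPG in replicate 1 (9.86) on the low side. On day 1 they were SLC6A9 in replicate 2 (6.67), HK2 in replicate 2 (7.91), BAMBI in replicate 1 (10.59) and HSPH1 in replicate 3 (11.03) on the high side, and ALDOA in replicate 1 (11.60) and CYCS in replicate 4 (7.74) on the low side.

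For 71 of the 113 genes named in the text, the day change differed between vehicle and Dox by the interaction term of the limma fit (adjusted p between 2.2e-10 for DDIT4 and 0.047 for MAP1LC3B). Markers given for detection alone are not counted in the 113. Many of the 113 genes were named for their vehicle change, which is a part of the interaction, and some for their difference from Dox. The count of 71 therefore follows in part from that choice and is no measure of how often the cultures differ. The values that follow are the vehicle change minus the Dox change, log2. Among genes of the amino acid stress response they were 2.04 for DDIT4, 1.72 for NIBAN1, 1.5 for TRIB3, 1.26 for SLC7A11, 1.15 for ASNS, 1.07 for PCK2, 1.03 for ATF3, 0.99 for CTH, 0.95 for DDIT3, 0.94 for SLC6A9, 0.81 for CEBPG, 0.79 for CHAC1, 0.78 for NUPR1 and 0.45 for ATF4. Among tRNA synthetases they were 0.85 for GARS1, 0.84 for MARS1, 0.72 for CARS1 and 0.42 for AARS1.

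Some hypoxia and glycolysis genes also had the more positive change in vehicle. They were BHLHE40 (1.09), LOX (1.09), PFKFB4 (0.81), ENO2 (0.78), ANKRD37 (0.74), VEGFA (0.68), NDRG1 (0.63) and HK2 (0.53). BNIP3 (0.04), ALDOA (0.13) and ALDOC (0.27) were among those that did not pass. In the BMP lists the values were -1.43 for ID1, -1.29 for ID2, -0.79 for ID3, -0.75 for HEY1, 0.70 for BAMBI and 1.86 for GDF15. Growth genes gave 1.64 for BIRC5, 1.00 for H2AX, 0.82 for CDT1, 0.70 for MCM6 and 0.66 for RRM2, against -0.66 for CCNE1, -1.88 for H2AC6 and -2.05 for H4C8.

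Lipid genes gave 1.33 for INSIG1, 0.78 for SREBF1, 0.67 for SCD and 0.64 for FASN. Lineage markers gave 1.02 for VWF, 0.71 for TMPRSS2, 0.42 for FOLH1, 0.38 for SLC45A3, -0.42 for KLK3 and -0.49 for ACP3. Of the remaining genes, the change was more positive in vehicle for S100P (2.08), BEST1 (1.70), DHRS3 (1.39), PRPH (1.33), XBP1 (1.12), TSC22D3 (1.06), PMAIP1 (1.00), SLC39A10 (0.83), JUND (0.76), ISG20 (0.67), GADD45B (0.66) and CBFB (0.35), and more negative for THBS1 (-1.58), FAM13B (-1.14), DUSP2 (-1.05), CYCS (-0.93), BEGAIN (-0.85), SLC30A1 (-0.64), MCOLN1 (-0.42), MAP1LC3B (-0.41) and DNAJA1 (-0.29).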

How the results depend on the processing

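No called gene named in the text changed direction under any alternative run, while the medians of several lists near 0 changed sign with median scaling. Against 1298 higher and 1293 lower probes, median scaling gave 689 and 2068, and the authors' normalized values 916 and 831. For Dox, median scaling gave 3964 lower probes. Of the list counts, median scaling gave 6 tRNA synthetases and 5 glycolysis genes higher and 25 mitosis genes lower, the authors' values 10 mitosis genes lower. When single vehicle arrays were left out, the calls were 1047 to 1151 higher and 974 to 1129 lower with vehicle, 2425 to 2502 higher and 2273 to 2353 lower with Dox, and 2403 to 2645 for the interaction. The same gave 29 to 31 ATF4 targets, 9 to 11 tRNA synthetases, 17 to 19 hypoxia, 7 to 8 glycolysis and 13 to 15 FOXO-linked genes higher, and 5 to 5 BMP targets, 18 to 20 replication, 11 to 15 mitosis, 12 to 16 ribosome biogenesis, 7 to 9 histone and 4 to 7 heat shock genes lower (4 without vehicle day 2 replicate 3). Same-numbered arrays of the days correlated at 0.38, -0.011, 0.14 and 0.019 in their deviations, the highest for replicate 1. So few values do not show that the numbers pair the arrays and cannot exclude it. With the replicate block, 1212 probes were higher and 1203 lower, and 2562 passed the interaction. Of 1918 values of single genes under alternatives 1872 kept their call, 42 lost it and 4 gained it. Day and chip cannot be told apart, and dim probes limit what the arrays can show: 166 called genes were not above background on all 4 arrays of either day.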

Other observations

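Several further gene lists held a few called members each, and their counts moved with the scaling. Of all genes 6.32% were higher and 6.09% lower, and of those above background on all 4 arrays of a day 12.6% and 12.3%. Counts near these shares, as for the immediate early and apoptosis genes, are no result about a list. Of 31 lysosome and autophagy genes 7 rose and 2 fell (median 0.07), against 4 and 3 with median scaling (median -0.03), and the rises were autophagy genes for the most part, such as MAP1LC3B (LC3, 0.47) and ULK1 (the kinase that starts autophagy, 0.44), while MCOLN1, a lysosomal calcium channel, fell by 0.63. Of 24 p53 target genes 6 rose and 2 fell (3 and 2 with median scaling), with GADD45A at 0.71 and TP53INP1 at 0.52. Of 28 interferon response genes 7 rose and none fell (2 and 1 with median scaling, 4 and none in the authors' values), led by ISG20, an exonuclease, with 9.80 to 9.86 on day 2 and 9.12 to 9.21 on day 1 (difference 0.66, limma adjusted p = 1.5e-06). PSMB8 (0.56) was above background on 1 array of day 2 and none of day 1, and TAP1, the peptide transporter, rose by 0.38. Of 29 immediate early genes 4 rose, JUND (0.63) the most, and 2 fell, but with median scaling 2 were higher and 4 lower.

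Of 25 androgen receptor targets 5 rose and 3 fell, but with median scaling 3 were higher and 5 lower. Beside the rises of TMPRSS2, KLK2, KLK3 and SLC45A3, ACP3, the prostatic acid phosphatase, fell by 0.48 and C1orf116 by 0.51. Of 25 apoptosis genes 2 rose, PMAIP1 (NOXA) at 0.56 among them (0.46 to 0.50 and not passed without day 2 replicate 1 or 2 or day 1 replicate 3), and 4 fell (6 with median scaling), CYCS (cytochrome c) by 0.53. Among 19 metallothioneins and zinc transporters the importer SLC39A10 rose by 0.65 and the exporter SLC30A1 fell by 0.61. GADD45B, on the list of YAP targets, rose by 0.86, but 19 of the 23 genes of that list did not pass.

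Globin RNA varied widely between arrays of 1 group, a pattern picked out after its values were seen. HBB had 5.49, 8.41, 10.77 and 8.57 on day 2 and 6.69, 6.35, 7.62 and 7.21 on day 1 (difference 1.34, standard error 1.015, adjusted p = 0.52). HBA2 had 4.83, 8.11, 10.19 and 8.63 on day 2 and 6.21, 6.07, 6.46 and 6.18 on day 1 (adjusted p = 0.34). On the Dox arrays HBB ranged over 6.18 to 9.72 on day 2 and 6.52 to 11.17 on day 1. No difference between the days could be called for either gene.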
